A study of Mus musculus with 37 samples.

Results

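Mitosis and G2/M genes are the genes whose products carry a cell from the end of DNA replication through the division of its chromosomes and its body. The set held 43 genes, given by name, of the 35885 genes in the table, and all 43 were found with 1 row each. They were followed in 37 RNA sequencing libraries from 2 tissues, femoral bone marrow (19 libraries) and spleen (18 libraries). All mice were C57BL/6N, wild-type by genotype. The treatment was social defeat, a stress in which a mouse meets an aggressive opponent, given 1 time per day. In marrow the groups were undefeated controls (3 libraries) and mice after 1 defeat (4), after 4 defeats (3), after 10 defeats (5) and after 10 defeats followed by 1 week without intervention, here called rested (4). In spleen the same groups held 4, 2, 2, 6 and 4 libraries. Marrow was flushed from the femur and spleen was taken whole, so every library mixes many cell types. The ages of the mice are not given in the sources used here. Each deposited value is an abundance per gene that the authors had scaled per library, and differences below are on the log2(value + 1) scale, which understates the change of low genes.

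Entry into mitosis is driven by Cdk1 bound to a B-type or A-type cyclin, and exit from it by the anaphase-promoting complex, which marks cyclin and securin for destruction. Between these steps aurora and polo kinases build the spindle, and a checkpoint at the kinetochores holds anaphase back until every chromosome is attached. Most of these genes are transcribed late in the cell cycle, when MuvB complexes with B-Myb and FoxM1 replace the repressive DREAM complex at a short promoter motif, the cell cycle homology element, often with NF-Y at CCAAT boxes nearby. In the adult mouse the marrow is the main site of blood formation, and the spleen can take it up under stress, chiefly for red cells.

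The promoter windows of 4 members are printed because they show this shared arrangement. The windows run from 250 bases before to 50 bases after the start site, 5′ to 3′ along the gene, from RefSeq on GRCm38.p6. Capitals mark TTTGAA (the cell cycle homology element) and CCAAT on either strand, where the other strand reads TTCAAA and ATTGG. They belong to Ccnb2 (chr9:70421505-70421804, minus strand), Cdk1 (chr10:69352863-69353162, minus strand), Cenpa (chr5:30666636-30666935, plus strand) and Plk1 (chr7:122159185-122159484, plus strand).
Ccnb2: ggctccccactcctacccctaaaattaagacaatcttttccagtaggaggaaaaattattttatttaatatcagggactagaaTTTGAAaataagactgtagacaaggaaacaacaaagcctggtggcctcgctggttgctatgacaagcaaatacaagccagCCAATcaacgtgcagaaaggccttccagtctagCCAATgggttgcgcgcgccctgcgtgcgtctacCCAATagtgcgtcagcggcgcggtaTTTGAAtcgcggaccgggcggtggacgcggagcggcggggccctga
Cdk1: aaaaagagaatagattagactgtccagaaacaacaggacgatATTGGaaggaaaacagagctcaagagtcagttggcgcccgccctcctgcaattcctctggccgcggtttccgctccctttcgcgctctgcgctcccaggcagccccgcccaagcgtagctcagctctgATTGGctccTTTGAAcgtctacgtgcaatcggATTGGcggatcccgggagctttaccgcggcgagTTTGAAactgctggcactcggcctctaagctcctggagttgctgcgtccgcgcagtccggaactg
Cenpa: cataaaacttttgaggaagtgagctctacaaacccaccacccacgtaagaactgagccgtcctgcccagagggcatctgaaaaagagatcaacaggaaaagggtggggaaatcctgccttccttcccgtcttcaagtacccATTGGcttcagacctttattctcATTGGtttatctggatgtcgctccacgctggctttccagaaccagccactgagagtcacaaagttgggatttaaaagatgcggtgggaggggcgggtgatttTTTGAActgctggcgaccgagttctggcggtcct
Plk1: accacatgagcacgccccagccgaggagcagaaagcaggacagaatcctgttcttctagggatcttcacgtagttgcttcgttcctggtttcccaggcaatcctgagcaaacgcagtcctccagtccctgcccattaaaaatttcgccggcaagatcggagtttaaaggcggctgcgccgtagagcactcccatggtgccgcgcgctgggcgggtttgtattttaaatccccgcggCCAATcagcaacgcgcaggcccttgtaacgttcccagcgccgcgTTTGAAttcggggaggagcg
Ccnb2 and Cdk1 each hold 2 homology elements and 3 CCAAT boxes. In Ccnb2 the element nearest the start begins at base 5 of the transcript, and the CCAAT boxes begin 87, 54 and 21 bases before the start, close to evenly spaced. In Cdk1 an element begins 15 bases before the start, and the nearest CCAAT box begins 48 bases before the start. Cenpa holds 1 element and 2 CCAAT boxes, and Plk1 1 of each.

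Windows were found for 38 of the 43 members; Ccna2, Aurkb, Kif20a, Tpx2 and Cdc25c were not matched. TTTGAA on either strand stood in a window of 27 of the 38 members (71.1%), against 20.2% of 27025 genes. CCAAT on either strand stood in 30 (78.9%), against 41.1%, and both motifs in 24 (63.2%), against 8.97%. Birc5, Nusap1, Nuf2, Pttg1 and Mad2l1 held neither in this window. The windows of Cdca3, Cdca8, Kif2c, Kif4 and Pttg1 lay wholly inside the gene as GENCODE M21 gives it, so they may not cover its promoter. A match is a string of letters and does not show a bound site.

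In undefeated mice the members were far lower in spleen than in marrow, with 1 exception. A limma model of all libraries called 42 of the 43 members lower in undefeated spleen (4 libraries) than in undefeated marrow (3 libraries) and none higher, where 19.2% of all tested genes were called lower and 27.1% higher. The members' median difference was -2.18 and that of all tested genes 0.10. As a check of the labels, all 6 T cell genes followed were called higher in spleen and all 9 early granulocyte genes higher in marrow.

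Cdk1, the kinase that drives mitotic entry (chromosome 10, 69335146 to 69352938, GRCm38), had values of 36.6, 19.9997, 54.1 and 32.2 in undefeated spleens, against 180.1, 144 and 169 in undefeated marrow. The tissues did not overlap, and the difference was -2.25 ± 0.31 (SE; adjusted p = 4.96e-07, limma). The widest difference was that of Ube2c, the ubiquitin-conjugating enzyme that feeds the anaphase-promoting complex, at -2.76 ± 0.32, and the narrowest called was that of Mad2l1, a checkpoint protein, at -1.12 ± 0.32. Pttg1, securin, which holds the chromatids together by blocking separase (chromosome 11, 43420250 to 43426251), was the member not called. It had 40.8, 43.3, 56.5 and 40.95 in undefeated spleens and 39.7, 43.1 and 33.5 in undefeated marrow, values that overlap (0.22 ± 0.24, adjusted p = 0.486, limma).

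In spleen the average level of the members lay above every control in each library after 4 defeats, after 10 defeats and after rest. The mean over the 43 genes of log2(value + 1) was 3.63 ± 0.29 in controls (SD, n = 4), 3.66 ± 0.27 after 1 defeat (n = 2), 4.41 ± 0.28 after 4 defeats (n = 2), 5.14 ± 0.39 after 10 defeats (n = 6) and 4.47 ± 0.29 in rested mice (n = 4). In marrow the same mean was 5.71 ± 0.08 in controls (n = 3), 5.78 ± 0.06 after 1 defeat (n = 4), 5.77 ± 0.03 after 4 defeats (n = 3), 5.41 ± 0.16 after 10 defeats (n = 5) and 5.57 ± 0.07 in rested mice (n = 4). The 6 spleens after 10 defeats therefore ranged from a level near that of 4 defeats to one near that of marrow after 10 defeats. Library D4 was the lowest at 4.42; the other 5 lay between 4.99 and 5.46.

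**Figure D1:**
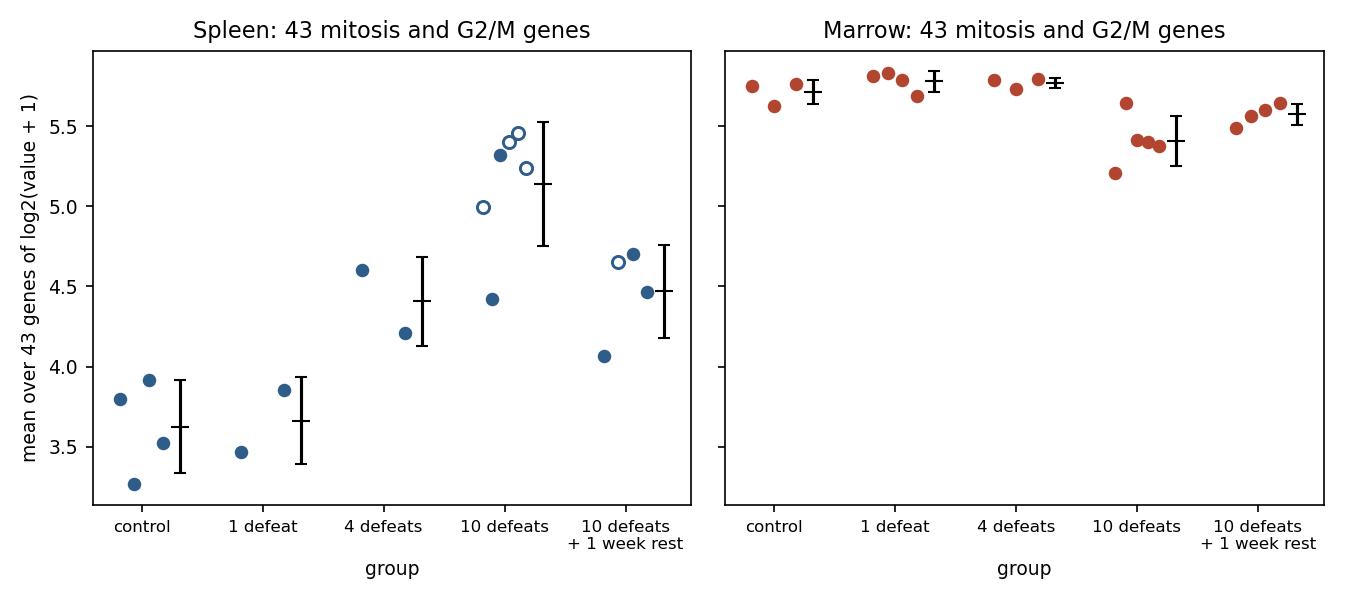
Mean over the 43 mitosis and G2/M genes of log2(value + 1) in each library (points), by group, for spleen (left) and marrow (right), with the group mean and SD beside them; open points are the 5 spleen libraries with a steep fall of values with transcript length. Spleens after 10 defeats lie between 4.42 and 5.46, above all 4 control spleens, which lie between 3.27 and 3.92.

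Column totals ranged from 657918 to 2652290, and depth, estimated from the steps between low values, from 6.12 M to 59.3 M reads per library, on assumed transcript lengths. In 5 spleen libraries, D6, D7, D9 and D10 after 10 defeats and D2 of the rested mice, log2 values fell with transcript length relative to the average of the 18 spleens, by 0.22 to 0.29 per doubling of length; they are called steep here. These 5 also had the highest totals (1539153 to 2652290, against 657918 to 1015794 in the other 13 spleens) and the highest haemoglobin shares (45.4% to 58.8%, against 1.74% to 39.8%). Differences without these 5 are given beside the spleen results after 10 defeats, and they then rest on D4 and D5 against the 4 controls. Rested spleen D1 had the next lowest slope, -0.133 per doubling. It fell just short of the limit of -0.15 and was not counted as steep. Slopes with transcript GC content, per 10 percentage points and against the same average, divided the libraries otherwise. They were -0.32 and -0.30 in D6 and D9, and 0.08 and 0.005 in D7 and D10. In the spleens after 1 defeat, D15 and D16, they were -0.36 and -0.35.

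After 10 defeats the spleen held more transcript of nearly every member. Limma called 36 of 43 higher than controls and none lower, where 16.8% of all tested genes were called higher and 41.9% lower. The members' median difference was 1.51, that of all tested genes -0.36. In 30 members each of the 6 spleens after 10 defeats lay above each of the 4 controls, which held for 10.4% of all tested genes. More dividing cells and more transcript per dividing cell cannot be told apart in whole tissue. Without the 5 steep libraries, which leaves D4 and D5 after 10 defeats, 32 were called higher; with column totals made equal 23 were, and the median of all genes moved to -0.86.

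The cyclins, Cdk1 and its activators rose together, 8 of 8. Ccnb1, the main B-type cyclin (chromosome 13, 100778650 to 100786570), had a lowest value of 40.9, a median of 88.1 and a highest value of 147 in spleens after 10 defeats, against 17.3, 9.89, 17.5 and 14.98 in control spleens. The groups were far apart, and the difference was 2.43 ± 0.29 (adjusted p = 5.37e-05, limma). Cdk1 had a lowest value of 90.5, a median of 257 and a highest value of 409.7 in spleens after 10 defeats, against 36.6, 19.9997, 54.1 and 32.2 in control spleens (2.70 ± 0.36, adjusted p = 9.45e-05). The second B-type cyclin Ccnb2 (2.52), Ccna2, the A-type cyclin (2.21), and Cks2 and Cks1b, small proteins that dock Cdk1 on its substrates (2.96 and 2.20), differed about as much. Of the phosphatases that switch Cdk1 on, Cdc25c rose by 2.10 and Cdc25b by 0.75. The call of Cdc25b was lost when C1, C2, C4, D5 or D7 was left out and with equal totals. Without the steep libraries the differences were 1.93 for Ccnb1, 1.84 for Ccnb2, 1.92 for Ccna2, 1.89 for Cdk1, 1.76 for Cks2, 1.34 for Cks1b and 1.28 for Cdc25c, all called, and 0.80 for Cdc25b, as large as before but not called (adjusted p = 0.117, limma).

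Among the mitotic kinases 2 of 3 were called, and the third, Plk1, divided the libraries. Aurka, which matures the spindle poles, had a lowest value of 24.3, a median of 54.2 and a highest value of 72.7 in spleens after 10 defeats, against 9.47, 5.70, 12.2 and 8.14 in control spleens (2.41 ± 0.26, adjusted p = 3.25e-05, limma). Nek2, a centrosome kinase, rose by 0.95, a call lost with equal totals. Aurka differed by 1.93 and Nek2 by 1.12 without the steep libraries, both called. Plk1, the polo-like kinase of mitotic entry (chromosome 7, 122159439 to 122169873), had 19.4 and 36.8 in D4 and D5, and 5.95, 16.9, 4.29 and 8.07 in the steep libraries D6, D7, D9 and D10, against 11.5, 5.06, 9.31 and 9.04 in control spleens. D4, D5 and D7 lay above all controls and the other 3 within or below their range, and the difference of 0.46 ± 0.49 was not called (adjusted p = 0.426, limma). Without the steep libraries it was 1.56 ± 0.40 and was called (adjusted p = 0.0195). With all libraries kept and the length trend of each removed, which also evened their mean levels, it was 0.60 ± 0.46. It was then not called (adjusted p = 0.281, limma) for a transcript of 2199 bp and 55.98% GC. Of the spleens after 10 defeats, D6 and D9 had the lowest Plk1 values and also the lowest GC slopes. The part of GC content was not tested.

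All 3 members of the chromosomal passenger complex, which corrects faulty attachments, were called higher. Birc5, survivin, its targeting subunit, had a lowest value of 89.8, a median of 331 and a highest value of 451 in spleens after 10 defeats, against 37.4, 20.1, 64.5 and 28.4 in control spleens (2.94 ± 0.42, adjusted p = 0.000154, limma). Its kinase Aurkb differed by 1.37 and its subunit Cdca8, borealin, by 1.16; both calls were lost with equal totals. The differences without the steep libraries were 1.96 for Birc5, 1.44 for Aurkb and 1.44 for Cdca8, all called.

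Of the kinetochore and checkpoint members 7 of 9 were called. Cenpa, the histone that marks the centromere (chromosome 5, 30666777 to 30674830), showed the largest difference of all 43, 3.22 ± 0.56 (adjusted p = 0.000502, limma). Its values were 806, 479.7, 743 and 487 in the steep libraries and 96.2 and 162 in D4 and D5, against 34.98, 34.6, 52.3 and 32.1 in control spleens. Every spleen after 10 defeats exceeded every control, but the steep libraries lay far above D4 and D5, and without them the difference was 1.70. The outer kinetochore genes Nuf2 (2.06) and Ndc80 (1.42) and the checkpoint genes Mad2l1 (1.93), Bub1 (1.5) and Ttk (0.57) rose too, as did Cenpf, a large kinetochore protein (0.95). Ttk was not called without C2, C3, C4 or D5 or with no filter, and Ttk and Cenpf were not with equal totals. Without the steep libraries Nuf2 (1.43), Mad2l1 (1.02), Bub1 (1.28) and Ttk (0.90) were called, and Ndc80 (0.51, adjusted p = 0.115, limma) and Cenpf (0.47, adjusted p = 0.349) were not. The checkpoint kinase Bub1b (0.44, adjusted p = 0.163, limma) and the kinetochore motor Cenpe (0.37, adjusted p = 0.331) were not called.

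The spindle and cytokinesis genes gave the same picture. Of 7 spindle motors and microtubule binders 6 rose, from the microtubule binders Nusap1 (1.84) and Hmmr (1.54), the chromosome-bound motor Kif22 (1.56) and Kif11, the motor that pushes the poles apart (1.51), down to Kif4, another chromosome-bound motor (1.08), and Kif2c, which shortens microtubules (0.92). Tpx2, which activates Aurka on the spindle, was not called (0.54, adjusted p = 0.186, limma), but differed by 1.21 and was called without the steep libraries (adjusted p = 0.0387). Of 6 genes of the midzone and cytokinesis 5 rose, with the cytokinesis regulator Ect2 (2.23), the ring scaffold Anln (2.03) and the microtubule bundler Prc1 (1.66) ahead of the midzone motor Kif20a (1.11) and Racgap1, which works at the midzone (0.86). The motor Kif23, the partner of Racgap1, was not called (0.46, adjusted p = 0.111). The calls of Kif22, Kif4, Kif2c, Kif20a and Racgap1 were lost with equal totals. Without the steep libraries 10 of these 11 rises were called, among them Nusap1 (1.35), Ect2 (1.4), Anln (1.55), Prc1 (1.32) and Kif11 (1.16), while Racgap1 was not (0.68, adjusted p = 0.0744, limma).

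Of the 5 anaphase genes 4 rose and of the 2 genes of chromosome structure 1 did. Cdca3, a mitotic entry factor (2.15), Ube2c (2.08) and Cdc20, the activator of the anaphase-promoting complex (1.75), had larger differences than separase, Espl1 (0.76), whose call was lost without C2, without D6 and with equal totals. Without the steep libraries Cdca3 (1.81), Ube2c (1.96) and Cdc20 (1.52) were called and Espl1 was not (0.58, adjusted p = 0.251, limma). Pttg1 had a lowest value of 38.2, a median of 52.5 and a highest value of 80.3 in spleens after 10 defeats, against 40.8, 43.3, 56.5 and 40.95 in control spleens, and was not called (0.27 ± 0.23, adjusted p = 0.314, limma). Top2a, the enzyme that untangles chromosomes, differed by 0.75. Mki67, the common proliferation marker that coats mitotic chromosomes (chromosome 7, 135689784 to 135716361), had a lowest value of 16.6, a median of 22.2 and a highest value of 45.4 in spleens after 10 defeats, against 24.9, 16.04, 19.5 and 18.02 in control spleens. Its highest value was in D5, its groups overlapped, and its difference was 0.29 ± 0.34 (adjusted p = 0.468, limma). The call of Top2a was lost with equal totals; without the steep libraries its difference was nearly the same (0.73) but not called (adjusted p = 0.12, limma).

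**Figure D2:**
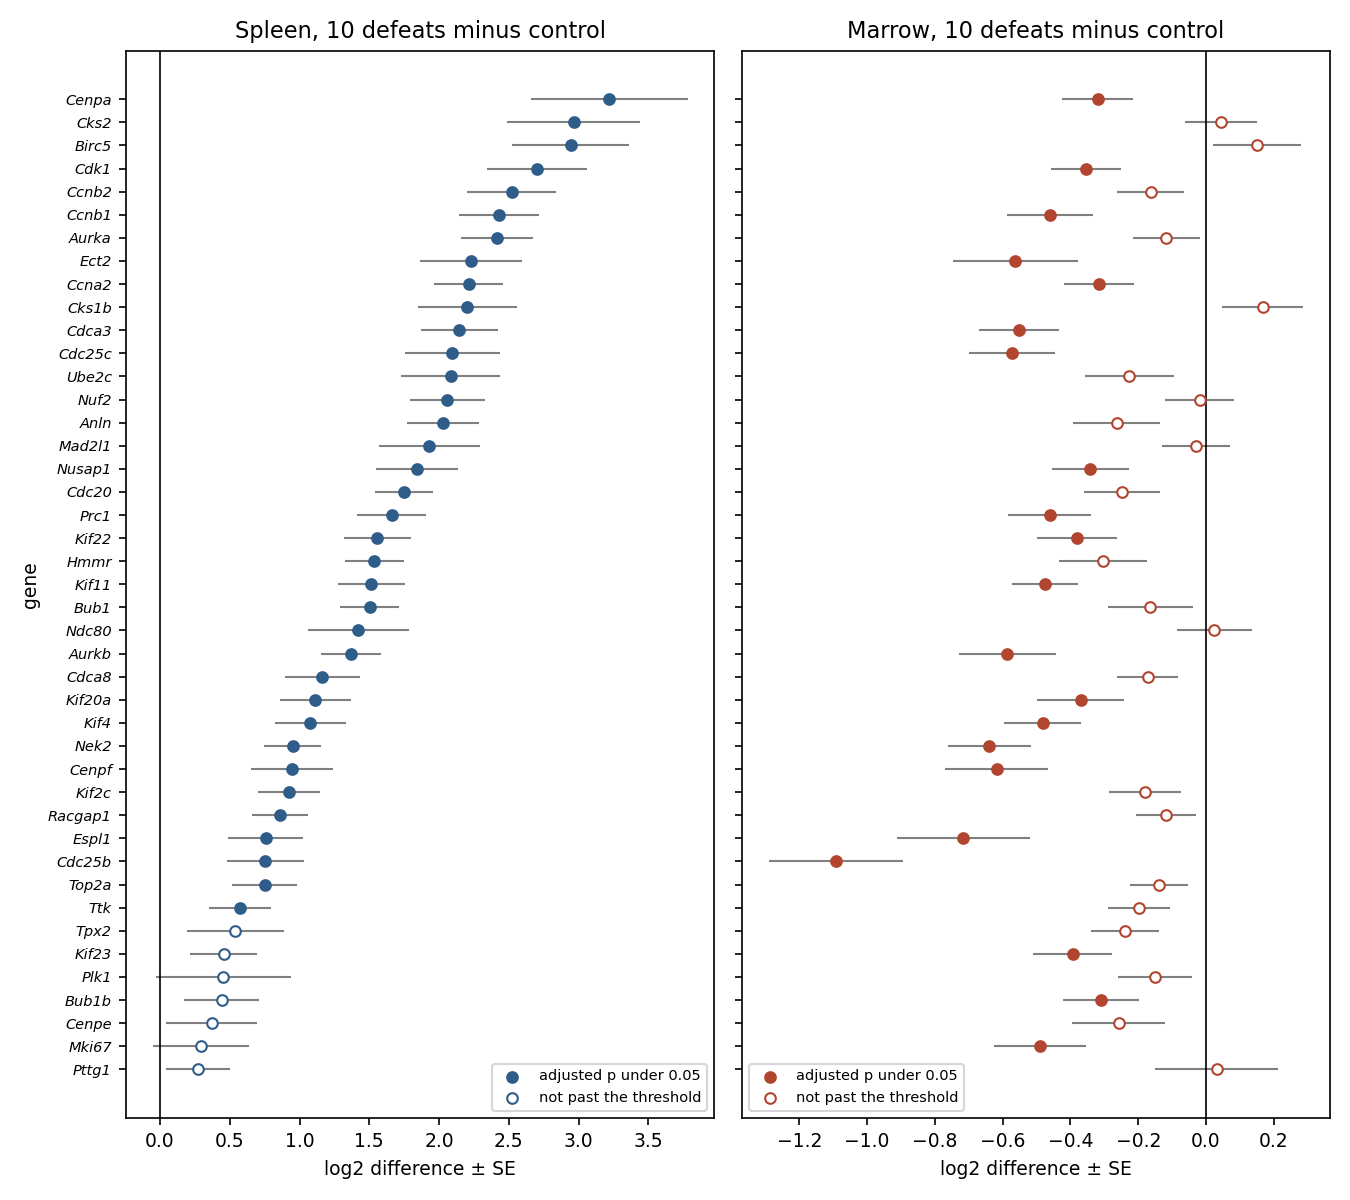
Log2 difference between 10 defeats and control, with its SE, for each of the 43 genes in spleen (left) and marrow (right; the axes differ in scale), ordered by the spleen difference; filled points passed an adjusted p of 0.05. In spleen all 43 lie above 0 and 36 are filled, from Cenpa at 3.22 down to Ttk at 0.57; in marrow 38 lie below 0 and 21 are filled.

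The order of these differences followed transcript length. The 12 members with transcripts under 2000 bp had a median difference of 2.12 in spleen after 10 defeats, the 21 members of 2000 to 4000 bp 1.42, and the 10 members over 4000 bp 1.01. Cenpa (906 bp) and Cks2 (692 bp) stood at the top and Mki67 (10061 bp) and Cenpe (7910 bp) near the bottom. Over the 43 genes, which share the same libraries, Spearman's rank correlation between length and difference was -0.48. With the length trend of each library removed, which also evened the libraries' mean levels, it was -0.14. The medians of the 3 classes were then 2.10, 1.54 and 1.86, and 41 members were called, with only Plk1 and Pttg1 left. Length and level cannot be told apart in these calls. Mki67 then differed by 1.27 ± 0.29 (adjusted p = 0.00308, limma), but by 0.60 ± 0.53 without the steep libraries (adjusted p = 0.413). Without these 5 the correlation was -0.54 and the medians were 1.61, 1.32 and 0.88, so a relation to length was also present between D4 and D5 and the controls. Pttg1, one of the shortest transcripts at 720.5 bp, was the 1 member under 2000 bp without a call, and its difference was -0.12 without the steep libraries.

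**Figure D3:**
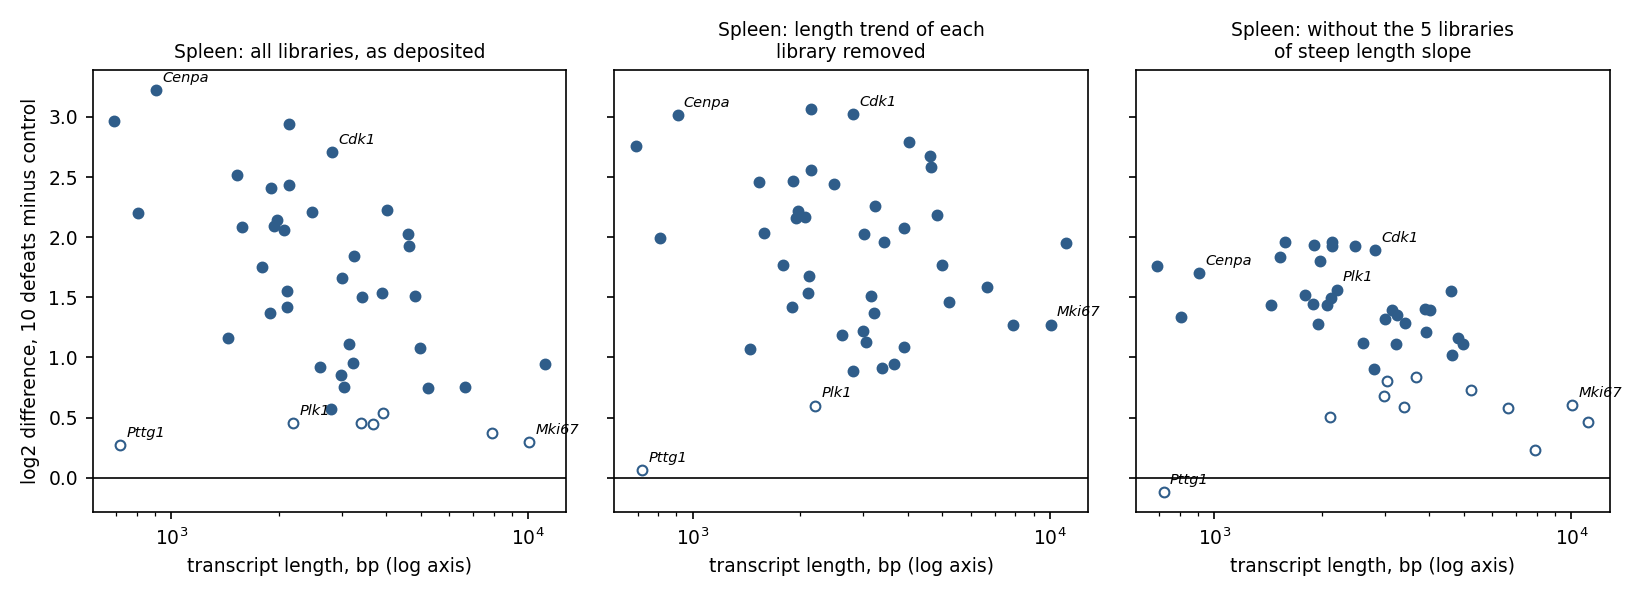
Spleen log2 difference between 10 defeats and control against transcript length in bp (log axis) for the 43 genes: as deposited (left), after removal of each library's length trend, which also evened mean levels (middle), and without the 5 steep libraries (right). Filled points passed an adjusted p of 0.05. The fall with length (rank correlation -0.48) is mostly gone in the middle panel (-0.14) and remains in the right one (-0.54), where the highest value is 1.96.

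Erythroid and early granulocyte precursor genes and megakaryocyte genes moved with the members in the same spleens. The summed values of stem and progenitor genes and of B precursor genes went the other way. The summed value of 14 erythroid precursor genes, among them Klf1 and Epor, was 1806 to 7528 in spleens after 10 defeats, against 423 to 1400 in control spleens, and all 14 were called higher (median difference 3.15). That of 9 early granulocyte genes, among them Mpo and Elane, was 108 to 1639 after 10 defeats, against 9.04 to 18.7 in control spleens, and 8 of 9 were called higher. No gene of either list was at 0 in these libraries. Megakaryocyte genes summed to 308 to 605 after 10 defeats, against 117 to 176 in control spleens. Of 8 mature neutrophil genes 6 were called higher after 10 defeats, while 5 of 6 T cell genes and 6 of 6 mature B cell genes were called lower, in a comparison where 41.9% of all tested genes were. Genes of germinal centre B cells, the dividing lymphocytes of a spleen, went the other way, with 4 of 6 called lower and sums of 5.26 to 14.7 after 10 defeats, against 12.1 to 42.8 in control spleens. Stem and progenitor genes summed to 15.2 to 35.2 after 10 defeats, against 42.4 to 51.3 in control spleens. B precursor genes summed to 7.52 to 75.8 after 10 defeats, against 87.1 to 102 in control spleens. Their mean log2(value + 1) was only 2.07 to 2.14 in control spleens, and a sum weighs the higher genes most. Igll1 was at 0 in C1, C2 and D5, and Rag1 in D6. The median difference of all tested genes in this comparison was -0.36. Of the 6 spleens after 10 defeats, D4 had the lowest erythroid sum (1806) and the lowest member mean, and D7 the highest of both (7528). Between these ends the order differed. D5 had a lower erythroid sum than D10 (4249 against 5235) but a higher member mean (5.32 against 4.99). In early granulocyte sums D6 was the highest (1639), and D7 had 500. The part of these cell types in the members' rise was not tested.

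**Figure D4:**
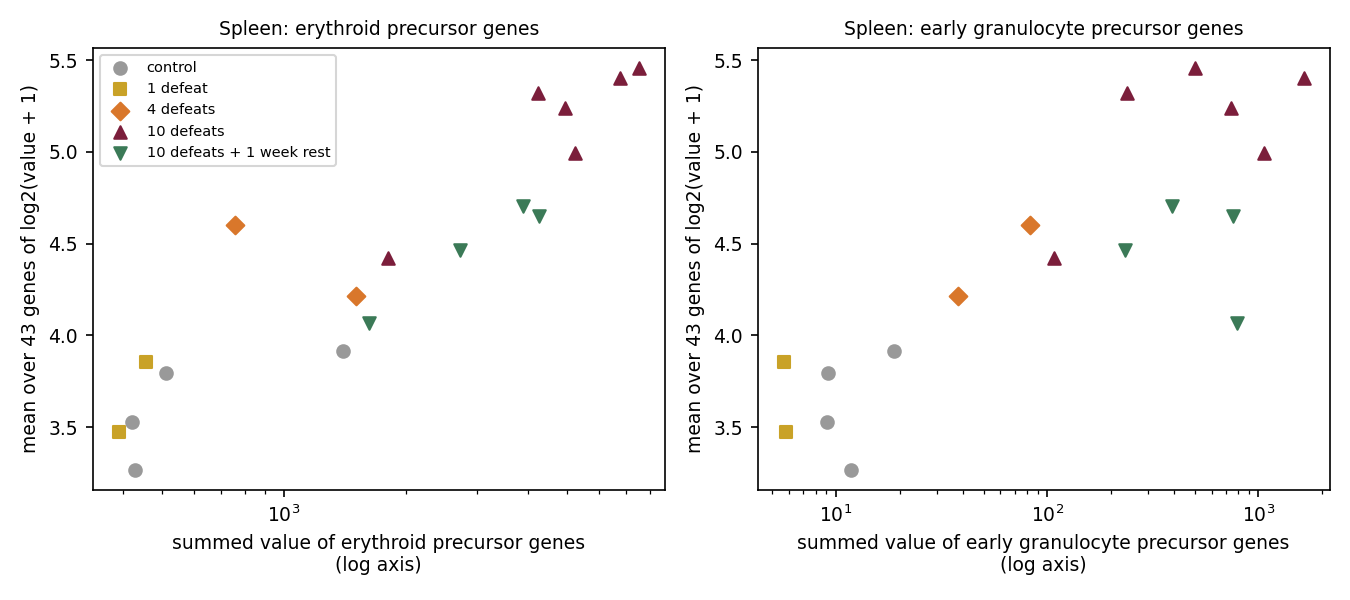
Mean of log2(value + 1) over the 43 genes in each of the 18 spleen libraries against the summed value of 14 erythroid precursor genes (left) and 9 early granulocyte precursor genes (right), both on log axes, by group. The spleens after 10 defeats have erythroid sums of 1806 to 7528, against 423 to 1400 in control spleens, and 5 of these 6 have the highest member means; both measures come from the same libraries.

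The groups after fewer defeats were set against the same 4 control spleens. After 1 defeat no member was called in spleen by limma, where 0.624% of all genes were called higher and 0.0645% lower. The median difference was 0.01, and 1 member (2.33%) had an unadjusted p under 0.05, against 15.1% of all genes. Both spleens after 1 defeat, D15 and D16, differed from the others as libraries. They had the highest length slopes (0.22 and 0.24) and the low GC slopes given above. Pseudogenes made up 12.1% and 15.9% of their totals, against 5.12% to 10.6% in control spleens. D16 also had the lowest estimated depth, 6.12 M reads, so the precision was limited here too. After 4 defeats no member was called either, where 0.043% of all genes were called higher and 0% lower. Yet 41 of 43 members lay above 0, their median difference was 0.86 against -0.04 for all genes, and 24 (55.8%) had an unadjusted p under 0.05, against 9.42% of all genes. Ccnb1 had 44.2 and 31.8 in spleens after 4 defeats, against 17.3, 9.89, 17.5 and 14.98 in control spleens; both exceeded every control, and its difference was 1.31 ± 0.39 (adjusted p = 0.234, limma). Plk1 had 27.4 and 16.4 after 4 defeats, also above every control (1.24 ± 0.65, adjusted p = 0.598). Only Cdc25b (-0.39) and Pttg1 (-0.39) lay below 0. The summed erythroid precursor genes came to 759 to 1508 in spleens after 4 defeats, against 423 to 1400 in control spleens, values that overlap. The sums of early granulocyte genes (37.7 to 83.2 after 4 defeats, against 9.04 to 18.7 in control spleens), mature neutrophil genes (2033 to 5454 after 4 defeats, against 212 to 420.0 in control spleens) and megakaryocyte genes (184 to 404 after 4 defeats, against 117 to 176 in control spleens) did not overlap. Below every control lay the sums of T cell genes (234 to 256, against 352 to 455) and mature B cell genes (469 to 1185, against 1377 to 1530). So did those of B precursor genes (44.4 to 69.9, against 87.1 to 102) and germinal centre B cell genes (9.39 to 10.5, against 12.1 to 42.8). The part of these cell types was not tested. With 2 libraries after 4 defeats the precision was limited.

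**Figure D5:**
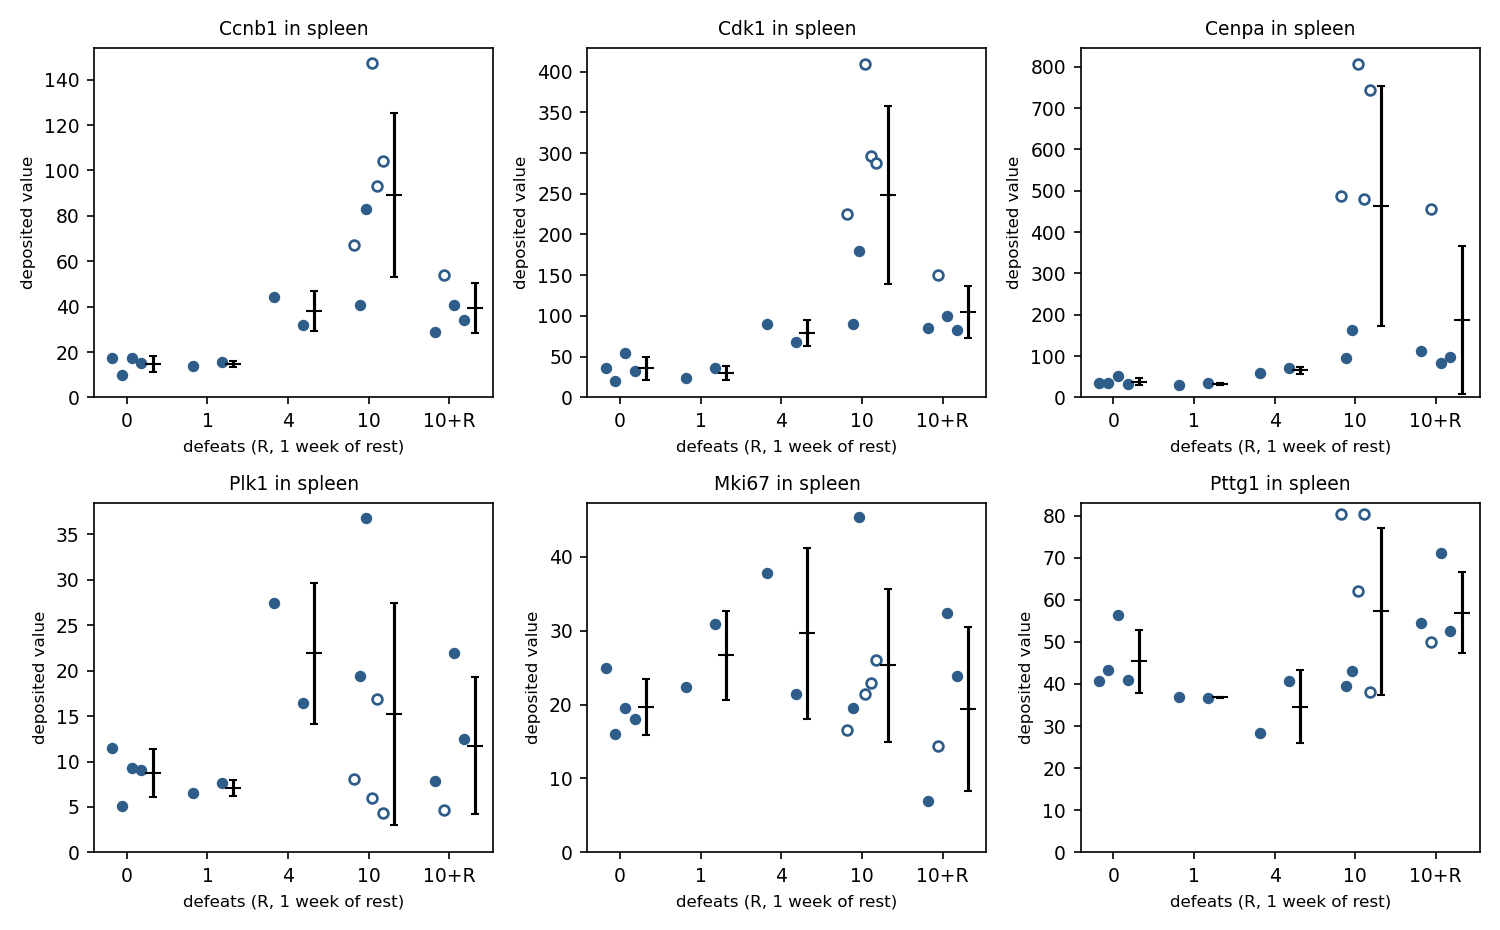
Deposited values of Ccnb1, Cdk1, Cenpa, Plk1, Mki67 and Pttg1 in each spleen library by number of defeats, with the group mean and SD; 10+R is the rested group and open points are the 5 steep libraries. Ccnb1, Cdk1 and Cenpa lie above every control in all 6 spleens after 10 defeats, Cenpa highest in the 4 open ones, and Plk1, Mki67 and Pttg1 overlap the controls.

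After 10 defeats and 1 week of rest the members' average level in spleen lay between that after 10 defeats and that of controls. Rested libraries ranged from 4.06 to 4.70 in member mean and overlapped D4 after 10 defeats (4.42). Against controls 41 of 43 members differed by more than 0. Limma called 21 of 43 higher in rested spleens than in controls and none lower, where 3.02% of all genes were called higher and 4.24% lower; the medians were 0.86 for the members and -0.18 for all genes. Cdk1 had 85.2, 151, 100.3 and 82.6 in rested spleens, against 36.6, 19.9997, 54.1 and 32.2 in control spleens, with no overlap (1.57 ± 0.39, adjusted p = 0.0271). Birc5 (1.85), Cks2 (1.87), Ube2c (1.71) and Ccnb2 (1.64) were the widest of those called. Cenpa had 112, 456, 83.2 and 98.4 in rested spleens, where the second value is the steep library D2, and was not called (1.89 ± 0.61, adjusted p = 0.0666, limma). Erythroid precursor genes were still higher, 12 of 14, with sums of 1620 to 4257 in rested spleens, against 423 to 1400 in control spleens. So were 8 of 9 early granulocyte genes (233 to 795 in rested spleens, against 9.04 to 18.7 in control spleens), 6 of 8 mature neutrophil genes (4328 to 77059 in rested spleens, against 212 to 420.0 in control spleens) and 6 of 6 megakaryocyte genes (405 to 1479 in rested spleens, against 117 to 176 in control spleens). Other sums still lay below every control: T cell genes (226 to 304, against 352 to 455) and mature B cell genes (479 to 1095, against 1377 to 1530). B precursor genes did too (50.3 to 77.7, against 87.1 to 102). The part of these cell types was not tested. The count of 21 was fragile: it fell to 5 without control C1, to 1 without C2 or C4, to 2 without D2 alone, to 13 without D3, to 2 with equal totals and to 11 with no filter, while 24 were called without all 5 steep libraries.

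Rested spleens set against spleens after 10 defeats, a comparison that shares its libraries with both above, gave no call by limma, where 0.272% of all genes were called higher and 0.294% lower. In 42 of 43 members the difference was below 0, with a median of -0.69 against 0.15 for all genes. Of the members 28 (65.1%) had an unadjusted p under 0.05, against 22.1% of all genes. Ccnb1 had 28.7, 54.1, 40.8 and 34.1 in rested spleens, against a lowest value of 40.9, a median of 88.1 and a highest value of 147 in spleens after 10 defeats (-1.09 ± 0.29, adjusted p = 0.0895). Without D4, the low spleen after 10 defeats, 24 members were called lower in rested spleens, and without the 5 steep libraries none was.

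In marrow, where the members started high, no member was called after 1 defeat. Limma called 0% of all genes higher and 0.00804% lower, and the members' median was 0.07. An unadjusted p under 0.05 was found for 0 members, against 4.30% of all genes. After 4 defeats 1 member was called higher, Aurka, with 53.7, 54.6 and 60.7 in marrow after 4 defeats, against 45.5, 41.6 and 43.3 in control marrow (0.37 ± 0.11, adjusted p = 0.0289, limma; 7.07% of all genes were called higher and 13% lower). The groups did not overlap, but the call was lost without C2, C4, D12 or D14, with equal totals and after quantile normalization. After 4 defeats 6.98% of the members had an unadjusted p under 0.05, against 36.5% of all genes.

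After 10 defeats the marrow held less transcript of 21 of the 43 members and more of none, where limma called 28.3% of all genes lower and 17.5% higher. The members' median was -0.30 and that of all genes -0.13. In either direction 58.1% of the members had an unadjusted p under 0.05, close to the 53.6% of all genes. In 17 members each of the 5 marrows after 10 defeats lay below each of the 3 controls, which held for 29.8% of all tested genes. The steepest fall was that of Cdc25b (chromosome 2, 131186949 to 131198497). It had 79.3, 34.6, 57.6, 50.97 and 48.7 in marrow after 10 defeats, against 120.4, 103 and 116 in control marrow, with no overlap (-1.09 ± 0.20, adjusted p = 0.000583, limma). Espl1 (-0.72), Nek2 (-0.64), Cenpf (-0.62), Aurkb (-0.59), Cdc25c (-0.57), Ect2 (-0.56) and Cdca3 (-0.55) followed. Mki67 fell by 0.49 on this scale, with 110.2, 79.7, 94.9, 102 and 72.3 in marrow after 10 defeats, against 125, 116 and 144 in control marrow. In marrow too the differences followed transcript length, with a Spearman rank correlation over the 43 genes of -0.41, and -0.14 with the length trend of each library removed. Mki67 (-0.25), Cenpf (-0.36) and Ect2 (-0.39) were then not called, while Cdc25b (-0.93) and Nek2 (-0.47) were. That removal also evened the libraries' mean levels, so length and level cannot be told apart in the lost calls.

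By role, 5 of 8 cyclins, Cdk1 and its activators fell in marrow, 4 of 7 spindle genes, 4 of 6 midzone genes, 3 of 9 kinetochore genes, 2 of 5 anaphase genes, and 1 each of 3 mitotic kinases, 3 passenger proteins and 2 genes of chromosome structure. Birc5 (0.15), Cks1b (0.17), Cks2 (0.04), Ndc80 (0.02) and Pttg1 (0.03) lay above 0 without a call, and after quantile normalization Ndc80 alone did. Library D5 was the highest of the 5 in member mean, at 5.64 against 5.21 to 5.42 in the other 4, and Aurkb had 72.4 in it against 42.98 to 49.9 in the others. The count of 21 was 14 without C1 or C4, 26 without D5, 11 after median-ratio rescaling and 10 with the length trend removed.

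The cell types of the marrow moved as well. Of 14 erythroid precursor genes 9 were called lower, with sums of 1206 to 3092 in marrow after 10 defeats, against 3866 to 4616 in control marrow. All 7 B precursor genes tested were lower (7.31 to 88.3 after 10 defeats, against 261 to 349 in control marrow), while 8 of 9 early granulocyte genes (2943 to 6536 after 10 defeats, against 1623 to 1960 in control marrow) and 7 of 8 mature neutrophil genes (112613 to 216033 after 10 defeats, against 46694 to 53970 in control marrow) were higher. None of the erythroid, granulocyte, neutrophil or B precursor genes was at 0 in these libraries. Their part in the members' fall was not tested.

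In the comparison of 10 with 4 defeats, which shares the 10-defeat libraries with the one above, 12 members were called lower in marrow after 10 defeats than after 4 and none higher, where limma called 0.788% of all genes lower and 1.66% higher. Their median over all 43 was -0.38, that of all genes 0.00. Cdca3 (-0.68), Aurkb (-0.63), Cdc25c (-0.60), Kif20a (-0.54) and Cdk1 (-0.53) differed most of those called. Cdk1 had 153, 135, 122, 125 and 108 in marrow after 10 defeats, against 186, 176 and 193 after 4 defeats, with no overlap (adjusted p = 0.0159). The count was 0 with equal totals, 0 in a fit of the 2 groups alone, and ran from 0 (without D14) and 3 (without D10) to 25 (without D5) when 1 library was left out; it was 4 without D7 or D9 and 6 without D11.

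After rest no member was called against control marrow by limma's test, which called 0% of all genes in either direction. The members' median was -0.13, and 3 members (6.98%) had an unadjusted p under 0.05, against 14.2% of all genes. Against marrow after 10 defeats, rested marrow was higher in 4 members and lower in none, where 13.8% of all genes were called higher and 7.91% lower. An unadjusted p under 0.05 was found for 34.9% of the members and 37.7% of all genes, so the members did not exceed all genes. The 4 called were Cdc25b (0.68 ± 0.18, adjusted p = 0.0163, limma), Nek2 (0.45), Aurkb (0.41) and Ccnb1 (0.37). Cdc25b had 65.98, 87.3, 86.6 and 101 in rested marrow, against 79.3, 34.6, 57.6, 50.97 and 48.7 in marrow after 10 defeats, overlapping through D5. Without D5, 12 were called; without D7, D10, D2 or D3, 2 were; without D8, 1 was higher and 1 lower; and with equal totals 15 were higher.

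Since members rose in spleen and fell in marrow after 10 defeats, the difference between the tissues was tested directly as an interaction. Effects were compared with their signs. That of 10 defeats was called higher in spleen than in marrow for 38 of 43 members and lower for none. Limma called 16.1% of all genes higher and 27% lower here, with medians of 1.94 for the members and -0.22 for all genes. Cenpa (3.54 ± 0.62) and Cdk1 (3.06 ± 0.40, adjusted p = 1.37e-06) led. The 5 not called were Plk1 (0.61), Cenpe (0.63), Mki67 (0.78), Tpx2 (0.78) and Pttg1 (0.24). With equal totals 26 were called, and without the steep libraries 39. With rest the members' median difference was -0.69 in spleen and 0.17 in marrow, so the signs were opposite. The effect of rest after 10 defeats was called lower in spleen than in marrow for 18 members and higher for none. Of all genes 5.36% were called lower and 4.82% higher (median -0.86 for the members). Ccnb1 (-1.46 ± 0.32, adjusted p = 0.00545, limma), Cdk1 (-1.35) and Cdc25c (-1.23) were the widest of these. That count was 5 without the steep libraries, 2 in a fit of the 4 groups alone, 4 without rested spleen D1 and 31 without spleen D4 after 10 defeats; it was also 12 without marrow D6, 11 without rested marrow D3 or spleen D7, 10 without marrow D10 or rested marrow D2, and 7 without rested marrow D8.

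Other genes of cell division, from lists chosen as the members were, gave these counts, to be read against the shares of all genes called after 10 defeats (16.8% higher and 41.9% lower in spleen, 17.5% higher and 28.3% lower in marrow). Of 50 further mitotic genes 43 were higher in spleen after 10 defeats than in controls and 1 lower (median 1.37), and in marrow 1 was higher and 23 lower (median -0.26). Cenph (2.27), Pbk (2.35) and Fbxo5, an inhibitor of the anaphase-promoting complex (1.84), had the smallest p in spleen, and the 1 that fell, named after its value was seen, was Arhgap11a (-0.82). Of 26 replication genes 22 rose in spleen and none fell, led by Gins1 (2.13), Rrm2 (2.46) and Cdc6 (1.90), while in marrow 14 fell and none rose, led by Uhrf1 (-0.58) and Mcm7 (-0.54).

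Of 20 regulators of late cell cycle transcription 11 rose and 1 fell in spleen after 10 defeats, among them Tfdp1, the partner of E2F factors (1.61), Mybl2, which encodes B-Myb (1.66), and E2f1 (1.21). In marrow 8 fell and 1 rose, with Mybl2 at -0.62 and E2f4, a subunit of DREAM, at -0.85. Of 9 G1 cyclins and kinases 4 rose in spleen, including Ccne2 (3.57), Ccne1 (2.56) and Cdk4 (1.44), and 2 fell. In marrow 4 of these 9 fell and 1 rose, with Ccnd2 (-0.80) and Ccne1 (-0.75) lower and Ccnd3 (0.45) higher. Condensin and cohesin gave 9 rises and 2 falls of 16 in spleen and 7 falls of 16 in marrow. The subunits and partners of the anaphase-promoting complex gave 7 rises and 2 falls of 16 in spleen, and 6 of each of 16 in marrow. Of 15 CDK inhibitors and p53 targets 4 rose and 2 fell in spleen, with Gadd45a (2.31) and Cdkn2c (1.01) higher and Cdkn1c (-0.68) lower. Of the 13 tested in marrow 2 rose and 2 fell, and Cdkn1a, p21, an inhibitor of CDKs, rose by 0.75. Erythroid and early granulocyte genes rose in the same spleens, as given above.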

How the data were processed

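Polyadenylated RNA of femoral bone marrow and spleen was made into TruSeq stranded mRNA libraries after column extraction (NucleoSpin RNA Plus) and sequenced on a NovaSeqXPlus, per the labels' protocols. The submitters' processing notes name kallisto 0.46.1, sleuth and GRCm38, without roles. The deposited signal is an abundance per gene that the authors had scaled per library; the exact quantity and scaling are not given in the sources used here, and steps between low values scaled with transcript length. Read counts were not analysed here, so tests planned for counts were not run.

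Values were fitted as log2(value + 1) with limma 3.58.1 in R 4.3.3 (trended, robust prior), with the 5 groups of a tissue in 1 model and all 37 libraries for comparisons across tissues. Tested genes had to reach 1 in 3 marrow or 2 spleen libraries (12442 and 13945; 14513 across tissues), with p-values adjusted by Benjamini and Hochberg over all of them and a threshold of 0.05. The series' design text calls the libraries biological replicates; p-values measure the spread between them. All 43 members passed the filter and were tested in every comparison. Members and lists were chosen with earlier results of these data known. All members were named; in other lists, up to 3 called genes per comparison with the smallest p. Symbols not matched were Fam64a, Lin54, Vpreb1 and Vpreb2. Gene positions came from GENCODE M21, transcript length is the median over a gene's basic protein-coding transcripts, and the length trend was a spline with 4 degrees of freedom. Removing this trend also evened the mean log2 level of the libraries over the tested genes. Depth was estimated from the spacing of low values, for an assumed fragment of 200 bp. At the spacing chosen, 59.6% to 75.7% of low values per library lay within 0.1 of a whole read. The fit was tested on simulated data. Alternatives were quantile normalization, median-ratio rescaling, equal totals, length trend removal, no filter, a pseudocount of 0.1, a block for shared numbers, omission of each replicate in turn, and fits restricted to the compared groups. Leaving out the 5 spleen libraries with a length slope below -0.15 was chosen after seeing the data.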

Additional observations from a re-analysis of the deposited data

Results flagged for a closer look

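The effect of 10 defeats differed between spleen and marrow for 38 members by the interaction test in limma, and the effect of rest for 18. Both are described above with the settings that move them.

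Single libraries stood apart in 14 of the 264 sets of values examined, the 43 members and their mean in each group of 4 to 6 libraries. In independent sets chance alone gives about 1 in 20; these sets share their libraries and are not independent. The rested spleen D2, one of the libraries with a steep length slope, was the high one in 6 of them. It had a Cenpa value of 456 against 83.2 to 112 in the other 3 rested spleens, Cks2 of 409.5 against 105 to 132, Birc5 of 235 against 96.2 to 109, Cks1b of 175 against 61.0 to 75.1, Mad2l1 of 63.5 against 25.2 to 28.0, and Ndc80 of 24.6 against 10.1 to 11.1. The spleen D5 after 10 defeats, which is not steep, was high in Mki67 (45.4 against 16.6 to 25.96), Tpx2 (32.6 against 8.69 to 17.2) and Ttk (6.51 against 2.80 to 4.06). The marrow D5 after 10 defeats was high in Aurkb (72.4 against 42.98 to 49.9).

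Among control spleens C3 was high in Cenpa (52.3 against 32.1 to 35.0) and Pttg1 (56.5 against 40.8 to 43.3), and C2 was low in Aurkb (7.04 against 13.8 to 14.6). Marrow D15 after 1 defeat was high in Hmmr (25.1 against 21.1 to 21.6).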

How the results depend on the processing

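Of the single members called in some comparison, none changed direction under any alternative run (the members above and below 0 without a call are described above). Undefeated spleen against undefeated marrow gave 42 called members under every alternative, with 42 to 42 when 1 library was left out. Of the 36 members called in spleen after 10 defeats, 22 were called under every alternative, and of the 21 called in marrow after 10 defeats 8 were: Aurkb, Kif11, Kif4, Cdc25b, Cdc25c, Cdca3, Nek2 and Espl1. Where a count moved, the cause was not tested.

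The counts that moved by more than 1.5 times, apart from those of the replicate block and of leaving out 1 library below, were these. With equal totals, spleen after 10 defeats against control gave 23, rested spleen against control 2, rested marrow against 10 defeats 15, marrow after 10 against 4 defeats 0 and marrow after 4 defeats against control 0. Quantile normalization gave 8 for rested marrow against 10 defeats and 0 for marrow after 4 defeats against control. Median-ratio rescaling gave 11 for marrow after 10 defeats against control, 2 for rested marrow against 10 defeats and 3 for marrow after 4 defeats against control. Removal of the length trend gave 10, 2 and 4 for the same 3 comparisons and 2 for rested spleen against 10 defeats. With no filter the counts were 11 for rested spleen against control, 2 for rested marrow against 10 defeats, 5 for marrow after 10 against 4 defeats and 10 for the effect of rest between tissues. Fits of only the groups compared gave 2 for rested marrow against 10 defeats, 0 for marrow after 10 against 4 defeats and 2 for the effect of rest. Leaving out the 5 steep spleen libraries, chosen after seeing the data, gave 1 for spleen after 4 defeats against control and 5 for the effect of rest.

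When 1 library was left out, the counts ran from 33 to 36 for spleen after 10 defeats against control, 1 to 20 for rested spleen against control, 0 to 24 for rested spleen against 10 defeats, 0 to 1 for marrow after 4 defeats against control, 14 to 26 for marrow after 10 defeats against control, 2 to 12 for rested marrow against 10 defeats, 0 to 25 for marrow after 10 against 4 defeats, 37 to 38 for the effect of 10 defeats between tissues and 4 to 31 for the effect of rest. A spleen group of 2 left with 1 library is assumed to vary like the other groups.

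The tissues share 15 library numbers. Correlations of same-numbered libraries' deviations from their group means ran from -0.224 to 0.398, with 6 above 0.1, and 3 of 15 marrow libraries correlated best with their own number, so the numbers were not taken as pairs. With the number as a replicate block, the counts were 42 for undefeated spleen against undefeated marrow, 37 for the effect of 10 defeats and 29 for the effect of rest. All 43 members had values of at least 1 in every library; an effect of depth on their spread was not tested. DESeq2 was not run because the values are not counts.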
